A study of Mus musculus with 9 samples.

Results

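Mdm2 and 9 other genes of the p53 pathway were followed in mouse MP and LSK cells, in RNA that sedimented with polysomes and in total RNA. The 10 genes were taken by name from a table of 47480 gene names. They are the regulators Mdm2, Mdm4 and Trp53, the arrest genes Cdkn1a and Ccng1, the death genes Bax, Bbc3, Pmaip1 and Trp53inp1, and the RNA-binding gene Zmat3. All 10 passed the filter on low counts and were among the 16426 genes tested. The 9 others were listed as genes of the same path, but with earlier results of these data known, so their p-values and shares are not free of that choice. Mdm2 was chosen by a measured value, its low polysomal over total ratio in LSK in these same libraries. Its values there, and in every comparison that sets LSK polysomal and LSK total libraries apart, are therefore a description with no test.

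p53, the product of Trp53, is a transcription factor that is held low in unstressed cells and accumulates after DNA damage and other stress, when it turns on genes that stop the cell cycle or kill the cell. Mdm2 is a ubiquitin ligase that binds p53, blocks it and marks it for destruction, and its own gene is a p53 target, which closes a negative feedback loop. The gene has a constitutive upstream promoter and a p53-responsive promoter in its first intron, and in human cells the transcripts with the longer upstream leader are known to load ribosomes poorly. In blood stem cells the pathway is known for restraining division and for removing damaged cells.

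The 9 libraries held primary hematopoietic cells of C57BL/6 mice, with no other allele named, in 4 groups: MP polysomal (3 libraries), MP total (2), LSK polysomal (2) and LSK total (2). The labels call MP progenitor cells and LSK stem cells and do not spell out MP; LSK is the usual name for lineage-negative cells with Sca-1 and Kit on their surface. All groups shared a treatment of 10 min at 37 °C with cycloheximide (100 ug/ml), a drug that stops ribosomes where they are on a message. Lysates were separated on sucrose gradients of 10 to 60% into 10 fractions. Polysomal RNA came from fraction 7, so ribosome loads that sediment elsewhere were not measured, and total RNA was saved from the same kind of lysate before the gradient. Age, sort gates and the number of animals are not given, nor whether libraries came from separate sorts, so p-values measure only the spread between libraries, which may be technical.

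Total counts ran from 27342343 to 34807735 in polysomal libraries and from 28966960 to 31435049 in total RNA libraries, and 17199 to 19426 genes had a count in polysomal libraries, against 20081 to 26046 in total RNA. Ly6a, which encodes Sca-1, lay at 0.159 to 1.26 CPM (counts scaled to a common library size) in MP libraries and at 50.2 to 109.6 CPM in LSK libraries, while Kit overlapped between the populations (493 to 1290 CPM in MP, 330 to 1595 CPM in LSK). Summed over 10 genes, myeloid and erythroid progenitor markers gave 36020 to 58900 CPM in MP and 5347 to 12420 CPM in LSK. Some libraries stood apart by markers of other cells. The LSK libraries numbered 2 summed to 3368 (polysomal) and 4795 CPM (total) over 10 B and plasma cell markers, against 901 and 626 CPM in those numbered 1 and 156 to 358 CPM in MP. The MP libraries numbered 1 summed to 18380 (polysomal) and 14600 CPM (total) over 10 maturing neutrophil markers, against 539 to 1014 CPM in the other MP libraries. Calls that change without these libraries are given with and without them. In bulk RNA of this kind, fewer cells of a type and less RNA per cell cannot be told apart.

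The letters around the annotated starts are shown for the windows of regulators and arrest genes that hold a match of the p53 half-site consensus, described below. RefSeq windows on GRCm38.p6, from 250 bases before to 50 bases after a start, matched 7 of the 10 genes by symbol, with 11 windows in all. Windows for Pmaip1, Trp53inp1 and Zmat3 were not used here. Capitals mark each match of the p53 half-site consensus, a run of 10 letters that reads the same on both strands. The Mdm2 window is chr10:117710709-117711008 (minus strand), the Trp53 window chr11:69580109-69580408 (plus), the upstream Cdkn1a window chr17:29090729-29091028 (plus) and the Ccng1 window chr11:40755237-40755536 (minus).

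Mdm2: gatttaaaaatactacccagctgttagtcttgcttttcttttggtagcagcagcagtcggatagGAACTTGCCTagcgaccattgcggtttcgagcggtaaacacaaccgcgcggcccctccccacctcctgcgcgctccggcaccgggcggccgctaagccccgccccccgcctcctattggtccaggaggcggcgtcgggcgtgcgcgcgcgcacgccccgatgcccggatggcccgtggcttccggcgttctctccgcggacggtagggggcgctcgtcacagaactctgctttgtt

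Trp53: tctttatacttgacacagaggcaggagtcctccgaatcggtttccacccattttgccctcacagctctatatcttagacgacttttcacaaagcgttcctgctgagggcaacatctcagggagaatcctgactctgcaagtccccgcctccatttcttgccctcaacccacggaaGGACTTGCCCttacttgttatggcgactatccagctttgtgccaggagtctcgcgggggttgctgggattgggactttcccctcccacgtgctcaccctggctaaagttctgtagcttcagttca

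Cdkn1a: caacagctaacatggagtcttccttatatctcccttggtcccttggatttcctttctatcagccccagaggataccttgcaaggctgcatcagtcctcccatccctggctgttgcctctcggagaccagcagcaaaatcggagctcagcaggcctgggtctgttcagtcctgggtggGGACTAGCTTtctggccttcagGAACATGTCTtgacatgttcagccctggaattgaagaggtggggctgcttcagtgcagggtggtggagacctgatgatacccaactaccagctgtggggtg

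Ccng1: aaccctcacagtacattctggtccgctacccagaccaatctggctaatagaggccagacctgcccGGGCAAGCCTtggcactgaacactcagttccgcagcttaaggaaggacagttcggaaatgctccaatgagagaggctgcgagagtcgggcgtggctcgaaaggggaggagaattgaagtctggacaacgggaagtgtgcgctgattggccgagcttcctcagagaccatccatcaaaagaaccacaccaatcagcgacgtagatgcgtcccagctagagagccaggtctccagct

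A half-site match was present in 5 of the 11 windows, 1 each of Mdm2, Trp53, Cdkn1a, Ccng1 and Bax, and in 8.36% of all 32817 RefSeq windows. The match begins 186 bases before the start in Mdm2 and 185 bases before it in Ccng1. The Mdm2 window spans the annotated upstream start of the gene (117710758). The p53-responsive promoter in the first intron of Mdm2 was not shown here. The upstream Cdkn1a window holds 2 matches, and the other Cdkn1a window, not shown, has none. Neither Mdm4 window nor any of the Bbc3 windows has one. The search also read GGGCGG (a GC box, in 35.6% of all windows), CCAAT (37.4%) and TATAAA (13.6%) on both strands, with no overlap with a half-site match in these windows: Mdm2 has 2 GGGCGG and 1 CCAAT, Trp53 has 1 CCAAT and 1 TATAAA, and Ccng1 has 4 CCAAT. A match is a description of letters, not a bound site.

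Mdm2 levels, relative to all other messages of a library, were lower in every polysomal library than in every total RNA library of both populations. Mdm2 (chromosome 10, 117688875 to 117710758, minus strand, GRCm38) had 13.0, 16.3 and 16.0 CPM in the MP polysomal libraries, against 58.5 and 71.2 CPM in MP total RNA. It had 7.11 and 5.77 CPM in the LSK polysomal libraries, against 49.3 and 98.3 CPM in LSK total RNA. All 5 polysomal libraries lay below all 4 total RNA libraries, and the 2 LSK polysomal libraries lay below the 3 MP polysomal ones, while the total RNA libraries of the populations overlapped. Group means were 15.1 ± 1.83 CPM in MP polysomal (SD, n = 3) and 64.8 ± 9.03 CPM in MP total RNA (SD, n = 2), so the polysomal level was 23.3% of the total level. In LSK they were 6.44 ± 0.944 CPM in polysomal and 73.8 ± 34.7 CPM in total RNA (SD, n = 2 each), a polysomal level of 8.73% of the total level.

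In MP, whose libraries did not enter the choice of Mdm2, its log2 change of polysomal over total RNA was −2.10 (SE 0.49, 95% interval −3.20 to −1.01). Its unadjusted p of 0.00171 in edgeR's quasi-likelihood test ranked 14 of 16426 genes, but after Benjamini-Hochberg adjustment over all genes it was 0.656, so the difference did not pass. A gene is said below to be called when its adjusted p is under 0.05, and no gene was in that comparison (0% called; 1243 genes had an unadjusted p under 0.05, and DESeq2 called 30 genes). A log2 change this low or lower was seen in 4.54% of the genes tested. In LSK the log2 change of Mdm2 was −3.52 (SE 0.60), given with no test, and it was −2.93 without the second LSK total library and −2.79 without both LSK libraries numbered 2. In LSK 5.21% of the genes had a change this low or lower, and 8.03% of the genes had all polysomal libraries below all total RNA libraries within each population.

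Nuclear noncoding RNAs, summed, were also lower in polysomal libraries. Over 10 of them, such as Malat1 and Neat1, summed levels were 367 to 498 CPM in MP polysomal and 539 to 551 CPM in MP total RNA, and 165 to 438 CPM in LSK polysomal and 1385 to 1702 CPM in LSK total RNA. Meg3 and Miat were at 0 in both polysomal groups. Of the 10 RNAs, 7 were tested. The log2 change was negative for 7 of them in LSK, and for 6 in MP with 1 positive. In both populations edgeR called 0 of the 7, and 0% of all genes. The part of nuclear or untranslated RNA in the Mdm2 values was not tested, and counts per gene do not separate Mdm2 transcripts that start at different promoters.

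**Figure D1:**
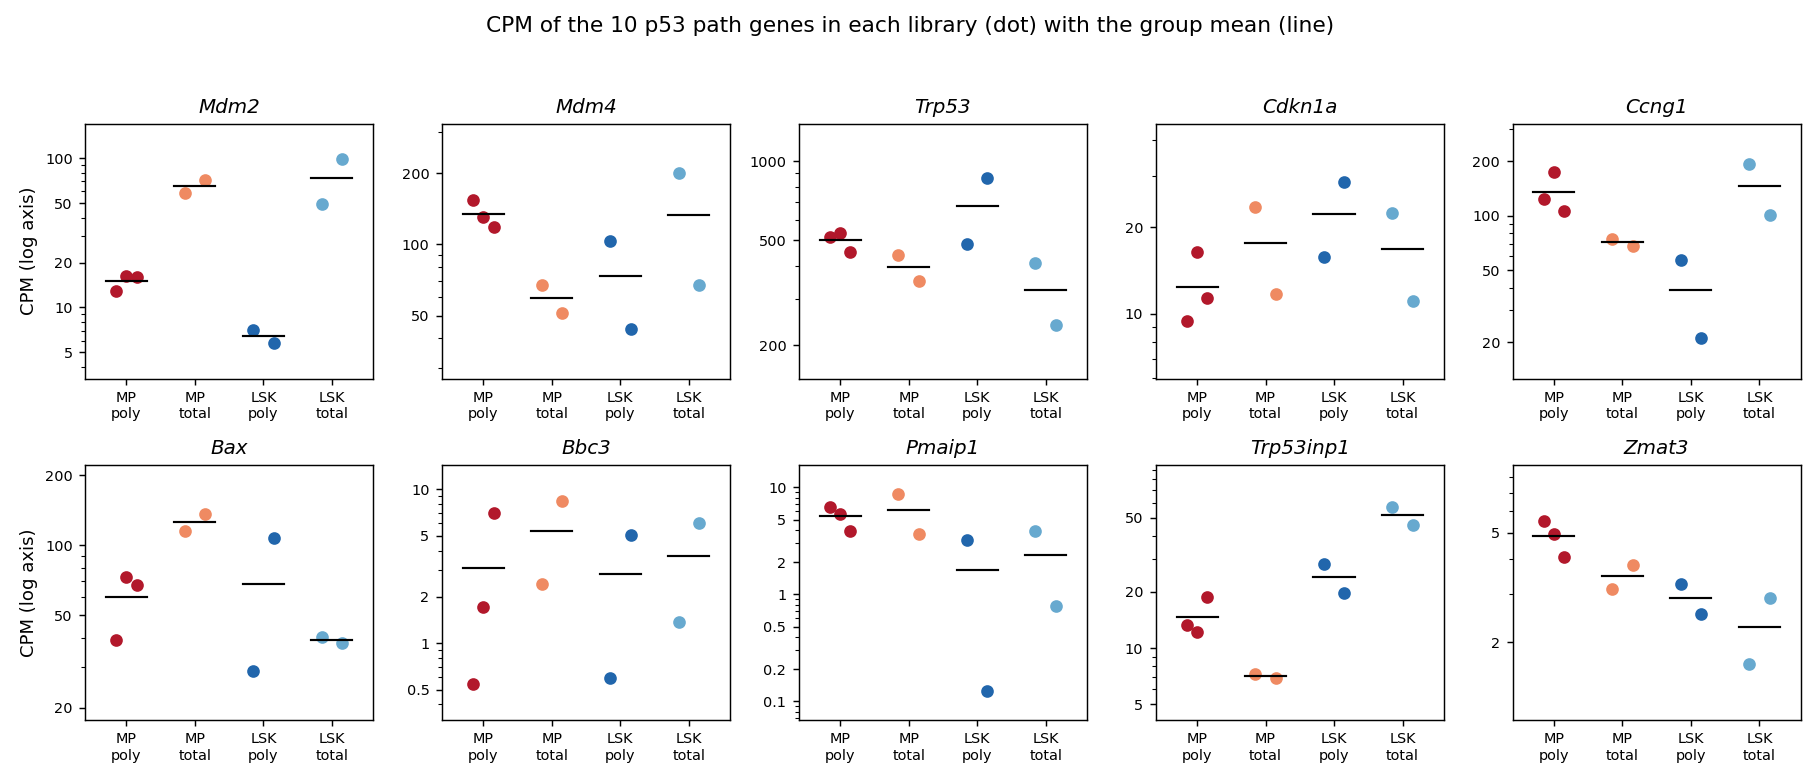
CPM on log axes for the 10 p53 path genes, with a dot for each library and a line at the group mean, in the order MP polysomal, MP total, LSK polysomal and LSK total. Mdm2 sits at 5.77 to 16.3 CPM in the 5 polysomal libraries and at 49.3 to 98.3 CPM in the 4 total RNA libraries.

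Per kilobase of annotated exon, Mdm2 ranked 6 of the 10 genes in MP polysomal RNA (2.97 ± 0.36 CPM per kb, SD, n = 3) and 4 in MP total RNA (12.8 ± 1.78 CPM per kb, SD, n = 2). In LSK it ranked 8 in polysomal RNA (1.27 ± 0.19 CPM per kb) and 4 in total RNA (14.5 ± 6.82 CPM per kb, SD, n = 2 each). Trp53 had the highest level per kilobase in every group, at 123.7 CPM per kb in MP polysomal, 98.0 in MP total, 167 in LSK polysomal and 80.3 in LSK total RNA. Ccng1 and Bax took the next places, with Ccng1 at 38.3 ± 9.90 and Bax at 38.0 ± 11.5 CPM per kb in MP polysomal RNA (SD, n = 3), a gap well inside their spread. Zmat3 was lowest in all 4 groups, at 0.425 CPM per kb in MP polysomal and 0.199 CPM per kb in LSK total RNA. In MP total RNA Mdm2 lay between Ccng1 (71.5 ± 4.23 CPM, or 20.4 CPM per kb) and Cdkn1a (4.96 ± 2.33 CPM per kb, SD, n = 2 each), both beyond its spread. In LSK polysomal RNA its neighbour Bbc3 was not separated from it, at 1.32 ± 1.47 CPM per kb (SD, n = 2). Exon lengths merge all annotated transcripts, which lowers the values of genes with a long merged length such as Mdm4 (14798 bases) and Zmat3 (11435 bases), beside 5083 bases for Mdm2.

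The 5 genes whose log2 CPM followed Mdm2 most closely over the 9 libraries, among 8764 genes that averaged 10 CPM or more, were Ccdc34 (Pearson r 0.975), Gatc (0.962), Ppp1r15a (0.955), Dnajb9 (0.953) and Pcgf3 (0.945). Gatc is a subunit of a mitochondrial amidotransferase, Ppp1r15a steers a phosphatase to the initiation factor eIF2, Dnajb9 is a chaperone helper of the endoplasmic reticulum and Pcgf3 is a polycomb protein. Ppp1r15a, for example, had 41.6, 60.1 and 59.1 CPM in MP polysomal and 174 and 92.5 CPM in MP total RNA, and 25.6 and 20.9 CPM in LSK polysomal and 96.1 and 202 CPM in LSK total RNA. In each of the 5 genes all polysomal libraries lay below all total RNA libraries, as in Mdm2. The genes were picked for likeness to Mdm2 over these libraries, so that separation is not a separate result. These likenesses describe 9 points that share the same 4 groups and the same libraries. Of the other p53 path genes followed here, Ccng1 came closest to Mdm2 (0.42), and Trp53 ran opposite to it (−0.84).

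**Figure D2:**
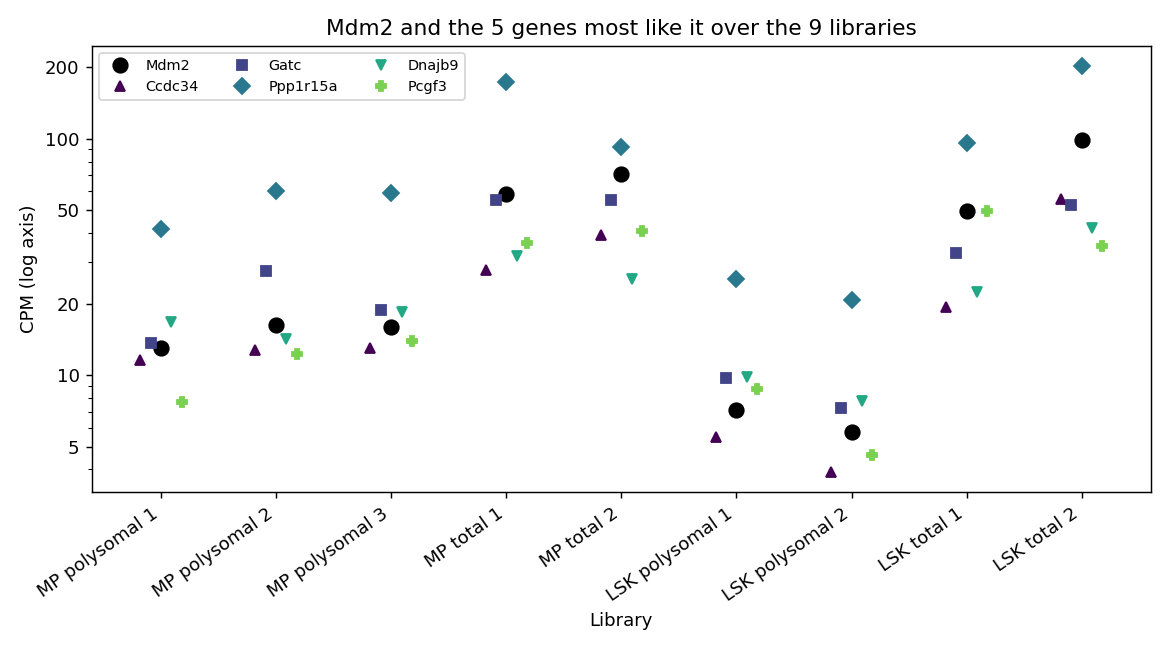
CPM on a log axis in each of the 9 libraries for Mdm2 (black) and the 5 genes with the highest correlation to it. All 6 genes are lower in the 5 polysomal libraries than in the 4 total RNA libraries, and LSK polysomal libraries are the lowest for each, except that Pcgf3 in the first LSK polysomal library (8.77 CPM) lies above the first MP polysomal library (7.69 CPM).

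The other regulators did not follow Mdm2. Mdm4 (chromosome 1, 132959484 to 133030561, minus strand), a relative of Mdm2 that binds p53 and blocks its activity, had 154, 131 and 118 CPM in MP polysomal libraries, against 67.6 and 51.2 CPM in MP total RNA. The MP polysomal libraries were all above the total RNA libraries, with a log2 change of 1.18 (SE 0.60, adjusted p 0.695 in edgeR's quasi-likelihood test). In LSK the Mdm4 libraries overlapped, at 103.5 and 43.8 CPM in polysomal and 200.2 and 67.6 CPM in total RNA. A pseudogene, Gm29257, lies over 639 bases of Mdm4 on the opposite strand and reached 0.666 CPM at most. Trp53 (chromosome 11, 69580359 to 69591873, plus strand) had 513, 535 and 453 CPM in MP polysomal libraries, against 441 and 352 CPM in MP total RNA, and 486.5 and 867 CPM in LSK polysomal libraries, against 411 and 239 CPM in LSK total RNA. Polysomal libraries were above total RNA libraries in both populations for Trp53, the opposite of Mdm2. The log2 change was 0.34 in MP (SE 0.44, edgeR adjusted p 0.926), 1.06 in LSK (SE 0.48, adjusted p 0.426) and 0.70 over both populations (SE 0.33, adjusted p 0.358), and none passed. Without both LSK libraries numbered 2, which carried the B and plasma cell markers, the LSK value was 0.24.

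Of the arrest genes, Ccng1 differed between the fractions in opposite directions in MP and LSK without passing the test, and Cdkn1a overlapped. Ccng1 (chromosome 11, 40748552 to 40755311, minus strand), a cyclin-like p53 target that recruits a phosphatase to Mdm2, had 123, 174 and 107 CPM in MP polysomal libraries, against 74.5 and 68.5 CPM in MP total RNA. It had 57.2 and 21.1 CPM in LSK polysomal libraries, against 192 and 101 CPM in LSK total RNA. Neither pair of groups overlapped, with polysomal higher in MP and lower in LSK. The log2 change was 0.91 in MP (SE 0.56, edgeR adjusted p 0.753) and −1.90 in LSK (SE 0.62, adjusted p 0.267), and the difference between these changes was 2.82 (SE 0.83, unadjusted p 0.00745, adjusted p 0.877). Ccng1 was therefore not called. Cdkn1a, the cyclin-dependent kinase inhibitor p21, overlapped between fractions in both populations, at 9.46, 16.4 and 11.4 CPM in MP polysomal and 23.5 and 11.8 CPM in MP total RNA, and at 15.7 and 28.8 CPM in LSK polysomal and 22.5 and 11.1 CPM in LSK total RNA. A gene model on the opposite strand overlaps 1046 bases of Cdkn1a, but it is not among the gene names that were counted. The strand setting of the counts is not given in the sources used here.

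Among the death genes, Bax and Trp53inp1 separated the fractions in MP. Bax, which permeabilises mitochondria, had 39.2, 73.3 and 67.1 CPM in MP polysomal libraries, against 115 and 136 CPM in MP total RNA. All 3 polysomal libraries were lower, with a log2 change of −1.07 (SE 0.58, edgeR adjusted p 0.711), whereas the LSK libraries overlapped (28.8 and 107 CPM in polysomal, 40.5 and 37.8 CPM in total RNA). The gene model Gm45808 shares 915 bases and the strand of Bax, but it is not among the gene names that were counted. Trp53inp1 (chromosome 4, 11156431 to 11174379, plus strand), a nuclear and autophagy protein that boosts p53 activity, had 13.3, 12.2 and 18.7 CPM in MP polysomal libraries, against 7.29 and 6.88 CPM in MP total RNA. It had 28.1 and 19.8 CPM in LSK polysomal libraries, against 57.2 and 45.6 CPM in LSK total RNA. Like Ccng1, it was higher in polysomal RNA in MP and lower in LSK, with no overlap in either. Its log2 change was 1.06 in MP (SE 0.50, edgeR adjusted p 0.667) and −1.10 in LSK (SE 0.53, adjusted p 0.450), and the difference of 2.16 (SE 0.73, unadjusted p 0.0147) had an adjusted p of 0.877. Opposite separation of this kind, lower in LSK and higher in MP, was seen in 1.74% of the genes tested and in 2 of the 10 genes here.

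The BH3-only death genes were low and variable. Bbc3, which encodes PUMA, had 0.547, 1.72 and 7.01 CPM in MP polysomal and 2.43 and 8.34 CPM in MP total RNA, and 0.598 and 5.03 CPM in LSK polysomal and 1.37 and 6.03 CPM in LSK total RNA. Within each group its libraries differed more than the group means did, and the fractions overlapped. Pmaip1, which encodes NOXA, had 6.59, 5.68 and 3.89 CPM in MP polysomal and 8.69 and 3.67 CPM in MP total RNA. In LSK it had 3.26 and 0.125 CPM in polysomal RNA, the second from 3 counts, and 3.91 and 0.773 CPM in total RNA. Its fractions overlapped too. Zmat3, an RNA-binding p53 target, had 5.53, 4.96 and 4.08 CPM in MP polysomal libraries, against 3.13 and 3.83 CPM in MP total RNA, with a log2 change of 0.48 (SE 0.53, edgeR adjusted p 0.900). In LSK it overlapped, at 3.26 and 2.53 CPM in polysomal and 1.66 and 2.89 CPM in total RNA.

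Across the 9 genes other than Mdm2, edgeR called 0 in MP and 0 in LSK between the fractions, where 0% of all genes were called. At an unadjusted p under 0.05 there were 0 of 9 in MP and 1 of 9 in LSK (Ccng1), against 7.57% and 12.1% of all genes, and DESeq2 called 0 of 9 in LSK and 0 in MP, where it gave an adjusted p to 4 of the 9 (Mdm4, Trp53, Ccng1 and Bax). Libraries did not overlap in MP for 5 of the 9 with polysomal higher, against 16.3% of all genes, and for 1 with polysomal lower (Bax), against 16.4%. In LSK this held for 1 with polysomal higher (Trp53), against 16.2%, and for 2 with polysomal lower, against 20.6%. Over both populations together edgeR called 0 of the 9 (0 in DESeq2), and 0 had an unadjusted p under 0.05, against 14.9% of all genes. For the difference between the MP and LSK changes edgeR also called 0 of the 9 (0 in DESeq2). There 3 had an unadjusted p under 0.05, namely Mdm4, Ccng1 and Trp53inp1, against 5.29% of all genes. In either comparison edgeR called 0% of all genes. The median log2 change of the 9 was 0.34 in MP and −0.40 in LSK, beside −0.08 and 0.02 over all genes. The MP and LSK comparisons use different libraries, but those between the populations below reuse them all.

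**Figure D3:**
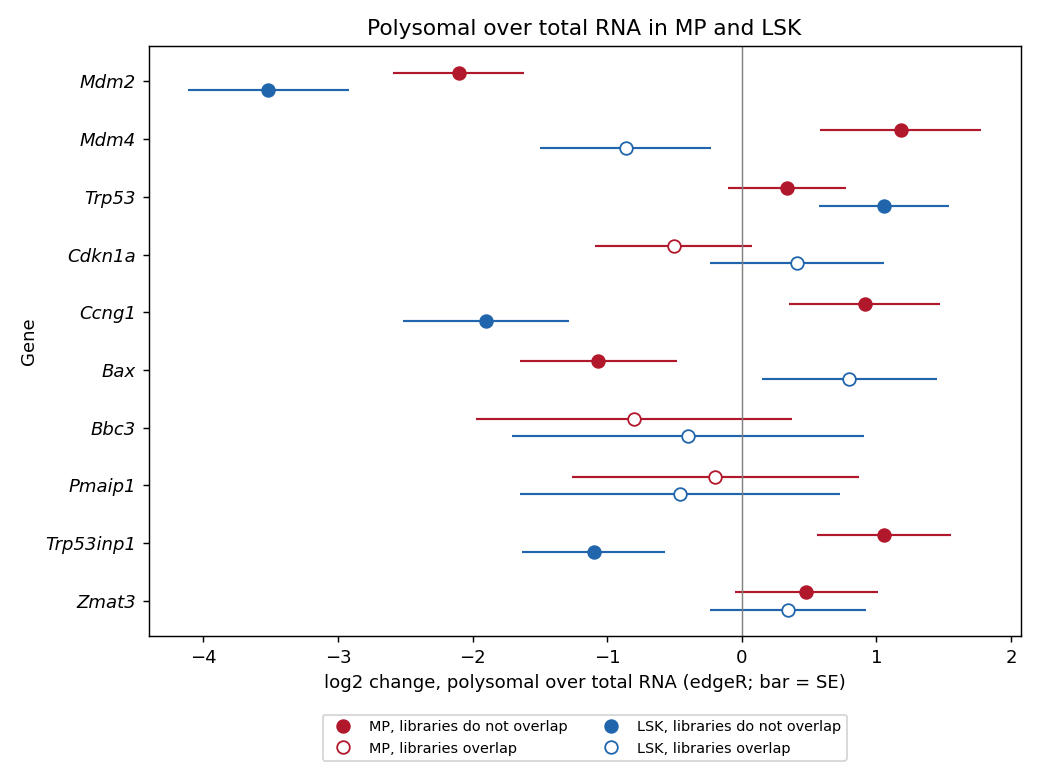
Log2 change of polysomal over total RNA for the 10 genes, in MP (red) and LSK (blue), with bars of 1 SE; filled dots mark groups whose libraries do not overlap. Mdm2 is lowest in both, at −2.10 in MP and −3.52 in LSK, and Ccng1 and Trp53inp1 lie on opposite sides of 0.

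Between the populations, edgeR called 1 of the 9 genes other than Mdm2 as a mean of both fractions, near the 10.1% of all genes. This was Trp53inp1, lower in MP. Its libraries, given above, were lower in MP than in LSK in both fractions with no overlap, a pattern of 10.6% of all genes. They averaged 14.8 ± 3.47 CPM in MP polysomal (SD, n = 3) and 23.9 ± 5.84 CPM in LSK polysomal RNA (SD, n = 2). In total RNA they averaged 7.09 ± 0.291 CPM in MP and 51.4 ± 8.18 CPM in LSK (SD, n = 2 each). The log2 change of MP over LSK was −1.78 as a mean of both fractions (SE 0.36, edgeR adjusted p 0.0151), with −0.70 in polysomal RNA (SE 0.47, adjusted p 0.498) and −2.86 in total RNA (SE 0.56, adjusted p 0.0503). It was called as 1 of 9 members other than Mdm2, lower, where 10.1% of all genes were called, 2.72% higher and 7.37% lower, and 24% had an unadjusted p under 0.05. The call was lost without the second MP polysomal library (adjusted p 0.0529), without the first MP total library (0.0831), without the second (0.0903) and without both MP libraries numbered 1 (0.153), although the log2 change stayed between −2.01 and −1.63 in the 17 alternatives. It also passed without both LSK libraries numbered 2.

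Mdm2 itself had a log2 change of 0.52 for MP over LSK as a mean of both fractions (SE 0.37, 95% interval −0.30 to 1.34, edgeR adjusted p 0.459), so no difference was called. That comparison averages the LSK polysomal and LSK total libraries, whereas the choice of Mdm2 used their ratio. The same libraries enter both, so the test is not fully apart from the choice. As a description, its log2 change was 1.23 in polysomal RNA and −0.19 in total RNA. Mdm4 was higher in MP in polysomal libraries (log2 change 0.87, SE 0.59, edgeR adjusted p 0.498) and lower in MP in total RNA (−1.17, SE 0.64, adjusted p 0.396). The total RNA libraries of Mdm4 did not overlap but came close, with the higher MP and the lower LSK library both at 67.6 CPM, and the change there was −0.19 without the first LSK total library and −1.75 without the second. Ccng1 was also higher in MP in polysomal and lower in MP in total RNA, at 1.78 in polysomal RNA (SE 0.58, adjusted p 0.138) and −1.04 in total RNA (SE 0.60, adjusted p 0.433). Neither gene passed in edgeR; DESeq2 gave Ccng1 an adjusted p of 0.0338 in polysomal RNA. Trp53 and Cdkn1a overlapped between MP and LSK in both fractions.

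Bax stood higher in MP in total RNA, at 115 and 136 CPM in MP and 40.5 and 37.8 CPM in LSK (log2 change 1.68, SE 0.66, edgeR adjusted p 0.235), and overlapped in polysomal RNA. Pmaip1 stood higher in MP in polysomal RNA (log2 change 1.66, SE 1.14, adjusted p 0.504). That value was 0.73 without both LSK libraries numbered 2 and 5.46 without the first LSK polysomal library (adjusted p 0.0587), which leaves the library with 3 counts. As a mean of both fractions Pmaip1 had a log2 change of 1.53 (adjusted p 0.308), and it passed in 1 alternative, without the first LSK polysomal library (3.42, adjusted p 0.03). Zmat3 was higher in MP than in LSK in both fractions with no overlap, a pattern of 6.75% of all genes, with a log2 change of 0.68 as a mean of both (SE 0.40, adjusted p 0.352). In polysomal RNA alone edgeR called 0 of the 9 (3.35% of all genes, 0.524% higher and 2.83% lower). At an unadjusted p under 0.05 there was 1 of 9, against 17.8% of all genes. DESeq2 called 1 of 9 there, and 1624 of the 16318 genes to which it gave an adjusted p. In total RNA edgeR called 0 of the 9 (1.09% of all genes, 0.274% higher and 0.816% lower). The unadjusted p was under 0.05 for 2 of 9, against 17.1% of all genes. DESeq2 called 1 of 9 in total RNA, and 1471 of 15999 genes. Libraries separated in polysomal RNA for 4 of the 9 with MP higher and 1 lower, against 15% and 17.4% of all genes. In total RNA they separated for 2 with MP higher and 3 lower, against 22.8% and 28.5%. Beside the progenitor markers, summed macrophage markers ran from 176 to 662 CPM in MP and from 34.0 to 168 CPM in LSK. As a mean of both fractions, the log2 change was positive for 4 of these 10 genes and negative for 6 (median −1.33). T and NK cell markers ran from 492 to 974 CPM in MP and from 358 to 614 CPM in LSK. Gzma was at 0 in LSK polysomal RNA. Only 4 of these 10 were tested, 2 with a positive and 2 with a negative change (median −0.71). Stem cell markers ran from 547 to 1341 CPM in MP and from 1024 to 2576 CPM in LSK. In MP most of that sum was Kit, with 1290 of the 1341 CPM in the first MP polysomal library. As a mean of both fractions, edgeR called 8 of these 10 lower in MP, against 7.37% of all genes (median −4.75). The part of such cells in the values between MP and LSK was not tested.

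**Figure D4:**
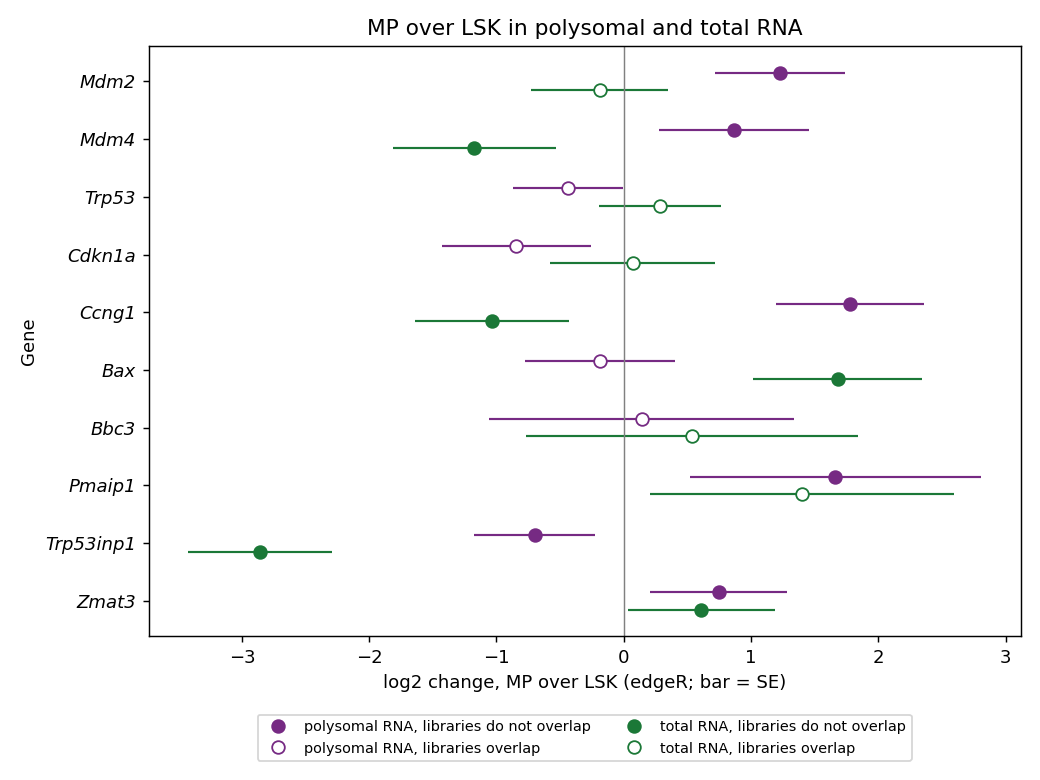
Log2 change of MP over LSK for the 10 genes in polysomal RNA (purple) and total RNA (green), with bars of 1 SE; filled dots mark groups whose libraries do not overlap. Trp53inp1 lies at −0.70 in polysomal and −2.86 in total RNA, and Ccng1 at 1.78 and −1.04.

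The rest of the pathway was read from 4 lists with 79 genes in the table, of which 74 were tested: 23 regulators of p53, 16 arrest targets, 17 death targets and 18 repair and metabolic targets. Between MP and LSK, as a mean of both fractions, 1 of the 74 rose and 5 fell in edgeR (8.11% called, against 10.1% of all genes). DESeq2 called 12 of the 74, and 2706 of 16318 genes. The gene that rose was Dram1, a lysosomal protein that promotes autophagy, at 56.0, 48.7 and 48.1 CPM in MP polysomal and 8.90 and 8.06 CPM in LSK polysomal RNA, and at 87.0 and 37.2 CPM in MP total and 10.5 and 4.79 CPM in LSK total RNA (log2 change 2.80, SE 0.45, edgeR adjusted p 0.0057). Its groups did not overlap in either fraction, with MP higher in both, a pattern of 6.75% of all genes.

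Ephx1, an epoxide hydrolase, had the smallest adjusted p of the 5 that fell, with 1.47, 1.09 and 1.31 CPM in MP polysomal and 10.1 and 10.7 CPM in LSK polysomal RNA. It had 0.733 and 0.519 CPM in MP total and 4.93 and 8.28 CPM in LSK total RNA (log2 change −3.20, SE 0.41, edgeR adjusted p 0.00256), and also passed in polysomal (−3.01, adjusted p 0.0206) and total RNA alone (−3.39, adjusted p 0.0438). Those single-fraction calls of Ephx1 were lost in 7 and 10 of 18 alternatives, at adjusted p of up to 0.143 in polysomal and 0.44 in total RNA, and in total RNA they included each left-out LSK total or MP library. Trp53cor1, a noncoding RNA known as lincRNA-p21 that neighbours Cdkn1a, had 0.342, 0.132 and 0.319 CPM in MP polysomal and 3.55 and 3.24 CPM in LSK polysomal RNA, with a log2 change over both fractions of −2.90 (SE 0.52, edgeR adjusted p 0.00877). Trp53i11, a little-studied p53-induced gene, had 0.956, 0.958 and 1.21 CPM in MP polysomal and 10.7 and 8.51 CPM in LSK polysomal RNA, with a log2 change over both fractions of −3.08 (SE 0.48, adjusted p 0.00495). The remaining ones were Abcb1a, a drug efflux pump (−3.41, SE 0.71, edgeR adjusted p 0.0166), and Ak1, an adenylate kinase (−1.64, SE 0.37, adjusted p 0.0224). Abcb1a was near the floor in MP, at 0.132 to 0.376 CPM, and varied in LSK, at 0.789 to 5.38 CPM. It met the count filter through the LSK libraries, and its log2 change ran from −4.09 to −1.79 in the 17 alternatives. In each of the 5 genes the MP libraries lay below the LSK libraries in both fractions, a pattern of 10.6% of all genes. Sesn1, a stress-induced sestrin among the arrest targets, also had MP libraries below LSK libraries in both fractions, at 27.3, 43.6 and 73.0 CPM in MP polysomal and 73.2 and 191 CPM in LSK polysomal RNA, but was not called (−1.37, edgeR adjusted p 0.0948). It passed with DESeq2 (0.0352) and with the replicate block (0.0389).

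By list, the calls over both fractions were 0 of 23 regulators, 1 of 16 arrest targets, 2 of 17 death targets in opposite directions and 3 of 18 repair and metabolic targets. In polysomal RNA alone 4 of the 74 fell, namely Trp53cor1, Trp53i11, Ephx1 and Ak1 (5.41%, against 3.35% of all genes), and in total RNA 1 fell, Ephx1 (1.35%, against 1.09%). DESeq2 called 6 of the 74 in polysomal RNA, and 1624 of 16318 genes. In total RNA it called 8 of the 74, and 1471 of 15999 genes. Of 18 alternatives, the call in polysomal RNA was lost in 13 for Ak1, in 7 each for Trp53cor1 and Ephx1 and in 6 for Trp53i11, which included each left-out MP polysomal library and both MP libraries numbered 1 for all 4 genes. Leaving out the second LSK polysomal library also ended all 4 (0.0559 to 0.186), and leaving out the first ended that of Trp53i11 (0.0575). Without both LSK libraries numbered 2, the adjusted p in polysomal RNA was 0.0615 for Trp53cor1, 0.0562 for Ephx1 and 0.196 for Ak1, and in total RNA 0.0649 for Ephx1. Among regulators the smallest p-values belonged to Usp10, a p53 deubiquitinase (log2 change 1.12, edgeR adjusted p 0.138), and the damage kinase Atm (−1.21, adjusted p 0.221). Usp10 overlapped in total RNA and Atm in polysomal RNA, at 34.1, 42.7 and 45.0 CPM in MP and 68.5 and 9.80 CPM in LSK. Atm was called, lower in MP, without both LSK libraries numbered 2 (−1.85, adjusted p 0.0247) and without the second LSK polysomal library alone (−1.62, 0.0397), and leaving out 1 library gave −1.62 to −0.20. All 6 calls over both fractions were lost without both MP libraries numbered 1, which carried the neutrophil markers, at adjusted p of 0.051 to 0.185, with the direction kept in each. Ak1 also lost its call without both LSK libraries numbered 2 (0.0649), with no filter (0.052) and without the first LSK total library (0.0539), the second MP polysomal library (0.0634) or either MP total library (0.109 and 0.115), Abcb1a without either MP total library (0.0797 and 0.0924), and Trp53cor1 without the second MP total library (0.0585). The median log2 change of the 74 genes was 0.07, beside −0.01 over all genes.

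**Figure D5:**
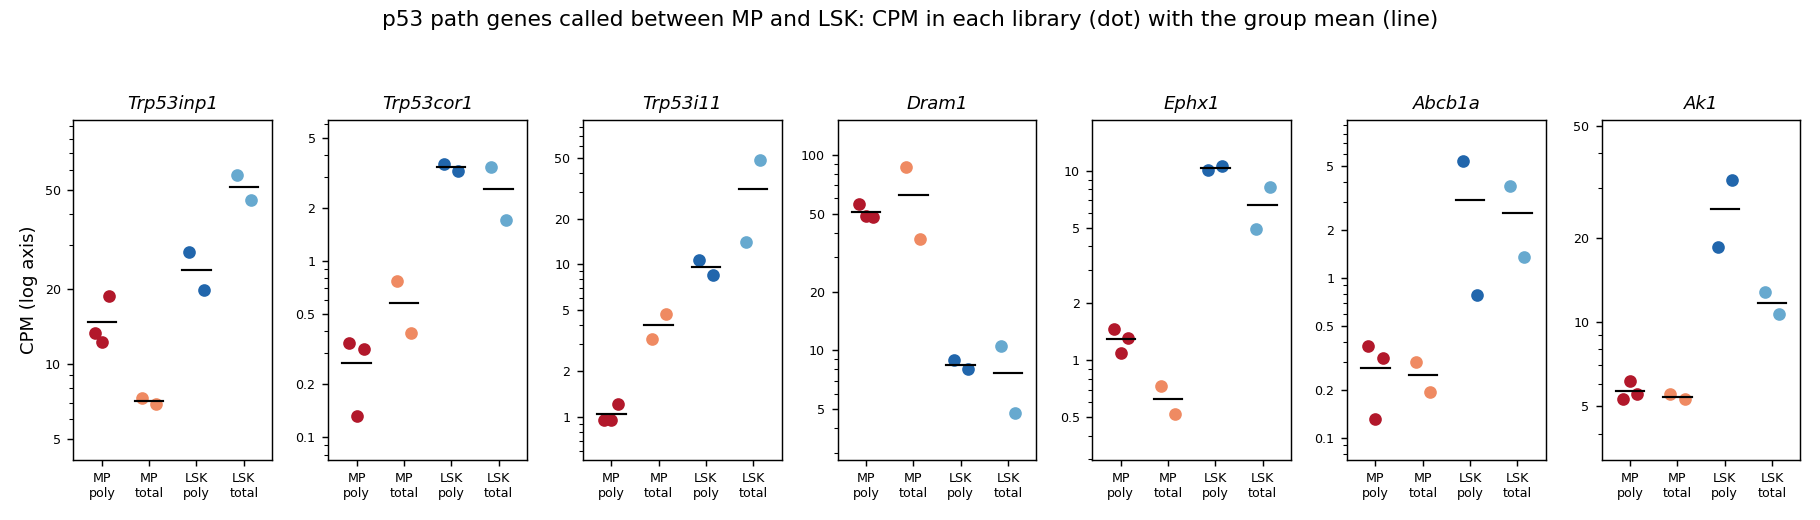
CPM on log axes in each library (dot) with the group mean (line) for Trp53inp1 and the 6 other p53 path genes called between MP and LSK, in the order MP polysomal, MP total, LSK polysomal and LSK total. Dram1 is higher in all MP libraries, and the other 6 genes are lower.

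Between the fractions, 0 of the 74 were called by edgeR in MP, in LSK or over both populations. At an unadjusted p under 0.05 there were 8, 2 and 7 of them in these comparisons, against 7.57%, 12.1% and 14.9% of all genes. DESeq2 called 0 in MP, where it gave an adjusted p to 22 of them and called 30 of 4297 genes. It called 0 in LSK, where it called 433 of 16318 genes. Over both it called 1 of them (Trp53i11, adjusted p 0.00692) and 765 of 16318 genes. For the difference between the MP and LSK changes, edgeR and DESeq2 each called 0 of the 74. In edgeR 3 of the 74 had an unadjusted p under 0.05 there, against 5.29% of all genes. The genes with the smallest p over both populations were Trp53i11 (log2 change −1.82, adjusted p 0.122) and the death effector Bcl2l11 (−1.18, adjusted p 0.228) among death targets, the acetylase Crebbp (1.10, adjusted p 0.191) and the kinase Aurka (0.87, adjusted p 0.281) among regulators, Gadd45a (−1.43, adjusted p 0.328) and Plk2 (−1.44, adjusted p 0.388) among arrest targets, and Ephx1 (0.85, adjusted p 0.355) and Fdxr (0.82, adjusted p 0.372) among repair and metabolic targets. None passed, and the libraries of Aurka, Plk2, Bcl2l11 and Fdxr overlapped in MP and those of Gadd45a in LSK. By mean CPM over the 9 libraries, not scaled for length, the highest gene was Rpl5, a ribosomal protein that binds Mdm2, among regulators (240.8 CPM), the cell cycle gene Gtse1 among arrest targets (85.6 CPM), the death gene Bid among death targets (164 CPM) and the polymerase gene Pold1 among repair and metabolic targets (368 CPM). The median log2 change of polysomal over total RNA of the 74 genes was 0.11 in MP and 0.12 in LSK, beside −0.08 and 0.02 over all genes.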

How the data were processed

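Raw counts per gene name for the 9 libraries, and normalized values near a log2 scale whose lowest value, 3.73, stands for a count of 0, were deposited by the authors. Tools listed in the submitters' processing notes are STAR, featureCounts, bcl2fastq and DESeq2, with the builds GRCm38 and mm10; the annotation, the strand setting and the tools' versions are not stated in the sources read here. Per the labels' protocols, Trizol was used for extraction and a SMARTer method for amplification. No molecular tags are named, so counts include amplification copies. All table columns were matched to samples by name (0 left over).

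The fit used edgeR 4.0.16 in R 4.3.3 on the counts as deposited. Genes were kept by filterByExpr (minimum count 10, minimum total 15), which left 16426 of 47480, and scaling was by the trimmed mean of M-values. The quasi-likelihood model had 1 mean for each of the 4 groups over all libraries, with 5 residual and 4.58 prior degrees of freedom. Contrasts were two-sided, with Benjamini-Hochberg adjustment over all genes and a threshold of 0.05. CPM use the scaled library sizes, and log2 CPM a prior count of 2. Exact permutation of single values cannot go below p = 0.333 (2 against 2 libraries) or 0.2 (3 against 2), so none was run. Of the 10 genes, log2 changes are given mainly where the libraries of both groups did not overlap, and for Mdm2; of the list genes named by the rule below they are given in either case. The procedure was tested on simulated data. Positions and exon lengths are from GENCODE M21 (GRCm38), promoter windows from RefSeq (GRCm38.p6).

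All 10 genes were named in each comparison. Of the 4 other p53 lists, each gene called, the 2 with the smallest p in the comparisons averaged over populations or fractions, and that with the highest mean CPM were named. The genes and lists were chosen with earlier results of these data known. Alternatives were DESeq2 1.42.0, its size factors, library totals, no filter, fits of the compared groups alone, replicate blocks, limma 3.58.1 on the authors' log2 values, and leaving out libraries.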

Additional observations from a re-analysis of the deposited data

Results flagged for a closer look

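Ccng1 and Trp53inp1 stood out because the polysomal over total change had opposite directions in MP and LSK, with no overlap of libraries in either population. The change in MP minus the change in LSK was 2.82 on the log2 scale for Ccng1 (SE 0.83, 0.91 in MP and −1.90 in LSK) and 2.16 for Trp53inp1 (SE 0.73, 1.06 in MP and −1.10 in LSK). The difference itself was tested in edgeR and did not pass for either gene (adjusted p 0.877 for both). It stayed between 2.27 and 3.80 for Ccng1, and between 1.93 and 2.54 for Trp53inp1, in the 18 alternatives, with adjusted p from 0.125 to 1 and from 0.15 to 1.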

How the results depend on the processing

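Mdm2 kept its direction in both comparisons that test it, with log2 changes of −2.25 to −1.95 for polysomal over total RNA in MP (19 alternatives; adjusted p 0.185 to 1 in the 18 that gave one, DESeq2 giving none) and of 0.27 to 0.81 for MP over LSK (17 alternatives, adjusted p 0.274 to 0.918). Of 41 changes of the 10 genes with overlapping libraries, 31 turned direction at least once. Plk2, over both populations, turned to 0.13 without the first MP total library (−1.90 to 0.13 leaving out 1 library) and to 0.051 without both MP libraries numbered 1. Trp53inp1 in total RNA passed with DESeq2 (adjusted p 3.05e-06), no filter (0.0279), library totals (0.0359), the authors' values (0.0178) and without either LSK polysomal library (0.0337 and 0.0364).

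Counts of genes called changed with the procedure, and the cause was not tested. With DESeq2 they were 30 for the fractions in MP, 433 in LSK and 765 over both (0 each in edgeR), 1 for their difference (0), 1471 for MP over LSK in total RNA (179), 1624 in polysomal RNA (551) and 2706 over both (1657). With no filter they were 22, 547, 843, 4, 1206, 1558 and 2636 in the same order. With library totals 328 genes passed in total RNA, and with the authors' values 850 in total RNA, 486 for the fractions in LSK and 462 over both. Fitting only the compared groups gave 0 in total and 219 in polysomal RNA. Leaving out 1 library gave 0 to 495 in total RNA (0 without either LSK total library or any MP library), 0 to 660 in polysomal RNA (0 without the first or second MP polysomal library, 25 without the third, 201 without the second LSK polysomal one) and 628 to 1613 over both. Without both LSK libraries numbered 2, 203 passed in polysomal RNA, and without both MP libraries numbered 1, 0, 0 and 287 passed in total RNA, in polysomal RNA and over both. Of the 9 genes other than Mdm2, 1 passed in total RNA with library totals, DESeq2, no filter or the authors' values (0 to 1 leaving out 1 library) and 1 in polysomal RNA with DESeq2. Over both fractions 0 passed without both MP libraries numbered 1, and 0 to 2 leaving out 1 library (2, with Pmaip1, without the first LSK polysomal library).

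The labels do not say that equal numbers pair libraries. Deviations of same-numbered libraries correlated at 0.253 to 0.62 for number 1 and at −0.375 to 0.592 for number 2. In groups of 2 libraries the deviations mirror each other, so values between such groups are the same for both numbers and not separate checks. With the replicate block, 570 genes and 1 of the 9 (Trp53inp1, adjusted p 0.0331) passed in total RNA and 1 gene for the fractions over both; with a block by population and number, 1 gene passed for the fractions in MP and 1 over both. The median biological coefficient of variation was 0.558, with 2 or 3 libraries a group.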
